A study of Mus musculus with 15 samples.

Results

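The transcripts examined encode 6 proteins of the milk fat globule membrane: Btn1a1, Xdh, Plin2, Cidea, Mfge8 and Muc15. All probe sets whose only gene symbol in the platform annotation was one of these were taken, which gave 8 of the 22690 probe sets in the table and all 6 genes among 12393. Btn1a1 had 3 probe sets and each of the other genes had 1. The samples were mammary epithelial cells purified from digested glands of female C57BL/6 mice, and 15 Affymetrix arrays were hybridised. The labels give 2 stages, virgin at 9 weeks and pregnant at day 21, and 3 intraperitoneal injections: PBS as control, 5-azacytidine (AzaC), an inhibitor of DNA methylation, or valproic acid (VPA), which blocks histone deacetylases. The pregnant label comprised 2 PBS, 3 AzaC and 3 VPA arrays. The virgin label comprised 2 PBS, 3 AzaC and 2 VPA arrays. Doses, the time from injection to collection and the pooling of mice are not given in the sources used here. Nothing in the labels ties a replicate to its own mouse, and the spread behind the p-values may therefore be technical. In such bulk samples fewer cells of a type and less RNA per cell cannot be told apart.

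Milk fat leaves the secretory cell as a lipid droplet wrapped in the apical plasma membrane, and the coat that remains around it is the milk fat globule membrane. Butyrophilin (Btn1a1) spans that membrane and binds xanthine oxidoreductase (Xdh), and mice deficient in either protein secrete fat poorly. Perilipin 2 (Plin2) coats the droplet on its way to the cell surface, and Cidea, known from brown adipocytes, promotes the growth and release of droplets in the lactating gland. Mfge8 (lactadherin) binds phosphatidylserine and bridges dying cells to phagocytes, and Muc15 is a heavily glycosylated membrane mucin. These genes are induced as the gland turns to secretion.

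The levels are the authors' deposited signals, read here as log2 values because the range fits that scale for Affymetrix arrays, although no base is stated. The scale ends at 14.48, the highest value in the table. Mfge8, Plin2 and Btn1a1 lay close to that end on every array, whatever the stage label, while Xdh and Muc15 reached lower. Mfge8 ranged from 14.01 to 14.24 over all 15 arrays, Plin2 from 13.76 to 14.15, Btn1a1 from 13.34 to 14, Xdh from 12.67 to 13.81 and Muc15 from 12.33 to 13.44. Cidea had the widest range, from 10.64 to 13.84. Outside the pregnant drug arrays it read 13.15 or more, as near the end as Muc15. The virgin label thus did not go with low values: the virgin PBS arrays read 14.01 and 14.06 for Mfge8 and 13.29 and 13.48 for Cidea. The milk protein genes Csn2, Wap and Lalba were as high in both labels, between 13.41 and 14.35 on all arrays. The members are induced as the gland turns to secretion, so lower values would go with a virgin gland and were not seen. Whether the stage labels hold was not tested, and every contrast of stage below is a contrast of labels. The luminal keratin Krt18, a marker of the labelled cell type, read between 11.47 and 13.49. Among the 92 genes with a mean over 13, 6.52% passed the test for AzaC in the pregnant label, near the 7.57% of all genes. Of the 191 genes with a mean between 12 and 13, where Cidea lay (12.92), 22.5% passed. The share was 13.3% for means between 10 and 12 and 6.38% for means under 10. For VPA the shares were 4.35%, 11%, 10% and 5.25% from the brightest to the dimmest genes, beside 5.98% of all genes.

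**Figure D1:**
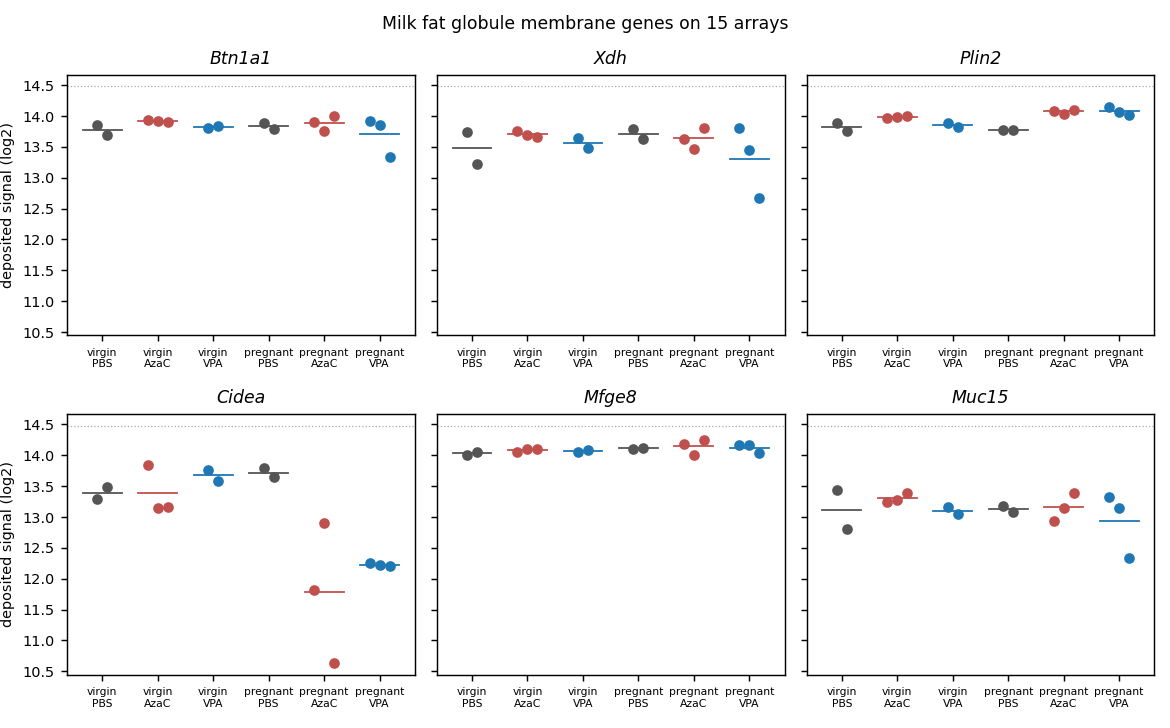
Deposited log2 signal (vertical axis) of the 6 genes in the 6 groups (horizontal axis). Points are arrays, horizontal lines group means and the dotted line the highest value in the table, 14.48. Cidea is lower on all 6 drug arrays labelled pregnant than on the PBS arrays of that label, and the pregnant VPA group has 1 low array for Btn1a1, Xdh and Muc15.

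Cidea, the promoter of droplet growth, fell with AzaC in the pregnant label. It read 13.79 and 13.65 on the PBS arrays and 11.82, 12.90 and 10.64 on the AzaC arrays, so the groups did not overlap. All 3 AzaC arrays were low, but they were spread over a wide range. The means were 13.72 ± 0.10 (SD, n = 2) and 11.79 ± 1.13 (SD, n = 3). The change was -1.93 ± 0.48 (SE) on the log2 scale, 3.82-fold lower (adjusted p = 0.0349 in the limma fit over all genes). Cidea was 1 of the 6 genes past the threshold of 0.05, and the only one. Over all 12393 genes 7.57% passed in this comparison (3.81% lower and 3.76% higher), and the groups did not overlap for 44.4%. The direction was the same under every alternative run, with changes from -2.49 to -1.36, but the call passed in 8 of 15. The 7 that ended it included leaving out pregnant PBS replicate 1 (adjusted p = 0.176) or 2 (0.146), leaving out pregnant AzaC replicate 1 (0.0853) or 3 (change -1.36, 0.0703), and fitting only these 5 arrays (0.173).

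With VPA in the same label Cidea read 12.25, 12.23 and 12.21, values that lay close together and below both PBS arrays. The mean was 12.23 ± 0.02 (SD, n = 3). The difference from PBS was -1.49 ± 0.48 (SE), 2.81-fold lower, and did not pass (adjusted p = 0.089; 5.98% of all genes passed, 2.34% lower and 3.64% higher, and 43.3% did not overlap). It passed when dim genes were left out (0.0404) and when only these 5 arrays were fitted (0.030). AzaC and VPA differed from each other by -0.44, with a 95% interval from -1.38 to 0.49 (adjusted p = 1; 0% of all genes passed in limma, 468 at an unadjusted p under 0.05), so the 2 drugs were not told apart. They share their PBS arrays, and the values are given side by side for that reason.

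In the virgin label no such difference was seen for Cidea. It read 13.29 and 13.48 with PBS, 13.84, 13.15 and 13.16 with AzaC, and 13.77 and 13.58 with VPA. The AzaC values enclosed the PBS values, while both VPA values lay above them. Over all genes 18.3% and 35.8% did not overlap, and 0% and 0.00807% passed (849 and 851 genes at an unadjusted p under 0.05). The changes were 0.00 ± 0.48 (SE, adjusted p = 1) with AzaC and 0.29 ± 0.52 (SE, adjusted p = 0.936) with VPA. The 95% intervals ran from -1.05 to 1.05 and from -0.86 to 1.44. Tested directly, the drug effect in the pregnant label minus that in the virgin label was -1.93 ± 0.68 (SE, adjusted p = 0.27) for AzaC and -1.78 ± 0.71 (SE, adjusted p = 0.213) for VPA. Neither passed (0% and 0.315% of all genes did, with 1587 for AzaC at an unadjusted p under 0.05), and the pregnant drug arrays lay below all virgin arrays of the same drug, where 22.8% (AzaC) and 46% (VPA) of all genes did not overlap. That contrast of the stage labels was -1.60 ± 0.43 (SE, adjusted p = 0.0967) under AzaC and -1.44 ± 0.48 (SE, adjusted p = 0.0894) under VPA, and 0.34 ± 0.52 (SE, adjusted p = 1) under PBS. Ordered by group mean, Cidea ran from pregnant AzaC (11.79) and pregnant VPA (12.23) to virgin AzaC and virgin PBS (13.38 each), virgin VPA (13.68) and pregnant PBS (13.72). Of the neighbours, pregnant AzaC and VPA, virgin AzaC and PBS, and virgin PBS and VPA were compared, and none of these pairs differed past the threshold.

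Since Cidea is also a gene of brown fat, 6 measured markers of brown adipocytes were read beside it. None of the 6 passed with AzaC or VPA in the pregnant label. Ucp1, the uncoupling protein that defines those cells, read 6.39 and 7.17 with PBS, 5.93, 6.28 and 9.15 with AzaC and 7.46, 9.91 and 7.86 with VPA. Its groups overlapped for AzaC, and its VPA values lay above those with PBS (change 1.63, adjusted p = 0.468). Dio2, the deiodinase of brown fat, read 8.17 and 7.97 with PBS and 7.13, 7.62 and 7.76 with VPA, lower without overlap (change -0.57, adjusted p = 0.275). Of the 6 markers 2 were higher with AzaC (median change -0.33) and 3 with VPA (median 0.08). The summed signal of the list, as log2, was 10.20 to 10.55 on PBS arrays, 9.63 to 10.92 on AzaC arrays and 10.34 to 11.54 on VPA arrays, and no marker was listed at 0 throughout a group. For 8 white adipocyte markers it was 13.86 to 14.17, 14.62 to 14.76 and 14.53 to 14.74 in the same order. For 8 luminal markers it was 14.93 to 14.97, 15.49 to 15.78 and 15.54 to 15.81, and for 10 macrophage markers 12.42 to 12.67, 12.87 to 13.07 and 13.08 to 13.31. For 9 endothelial markers it was 10.79 to 11.35, 11.59 to 12.21 and 11.52 to 12.19, and for 8 fibroblast markers 13.26 to 13.49, 13.69 to 14.46 and 13.79 to 14.84. Basal epithelium (7 markers) gave 13.98 to 14.04, 14 to 14.13 and 14.03 to 14.35, and skeletal muscle (8 markers) 14.44 to 15.73, 14.83 to 16.38 and 16.03 to 16.20. The adipocyte, luminal, macrophage, endothelial and fibroblast sums were higher on each drug array than on either PBS array, while Cidea was lower. The skeletal muscle sum was higher without overlap with VPA but overlapped with AzaC, and no muscle marker passed with either drug. Of all genes, 44.4% (AzaC) and 43.3% (VPA) did not overlap in these comparisons. The mean level of the adipocyte markers overlapped for AzaC, at 9.04 to 9.53 on PBS arrays and 9.26 to 10.15 on AzaC arrays. No adipocyte or macrophage marker passed with either drug. Beside 7.57% and 5.98% of all genes, 1 of 9 endothelial markers passed with each drug, and 1 of 8 luminal and 1 of 8 fibroblast markers with VPA. Leaving out any 1 of the arrays compared left 0 luminal and 0 fibroblast markers past the threshold for VPA. It left 0 to 1 endothelial markers for each drug, where the limma adjusted p of Cldn5 rose to as much as 0.18 (AzaC) and 0.152 (VPA). The part of such cells in the results was not tested.

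Plin2, the droplet coat, differed in the other direction and by far less. It read 13.78 on both pregnant PBS arrays, 14.08, 14.04 and 14.10 with AzaC, and 14.15, 14.07 and 14.02 with VPA. All 6 drug arrays lay above both PBS arrays, where the groups did not overlap for 44.4% (AzaC) and 43.3% (VPA) of all genes. The differences were 0.29 ± 0.12 (SE, adjusted p = 0.159) with AzaC and 0.30 ± 0.12 (SE, adjusted p = 0.161) with VPA, each 1.23-fold, and neither passed. With values under 5 set to 5, which changes the spread that limma shares across genes but no value of Plin2, both passed (adjusted p = 0.00917 and 0.0118). In the virgin label Plin2 read 13.89 and 13.76 with PBS, 13.96, 13.99 and 14 with AzaC, and 13.88 and 13.83 with VPA. The AzaC arrays lay above both PBS arrays there too, by 0.16 ± 0.12 (SE, adjusted p = 0.798), as did 11.5% of all genes. The VPA arrays overlapped with PBS (0.03 ± 0.14 SE, adjusted p = 0.978). Ordered by mean, Plin2 ran from pregnant PBS (13.78), virgin PBS (13.82) and virgin VPA (13.86) to virgin AzaC (13.98), pregnant AzaC (14.07) and pregnant VPA (14.08), and no comparison between 2 of these groups passed. All of these values lie near the end of the scale.

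**Figure D2:**
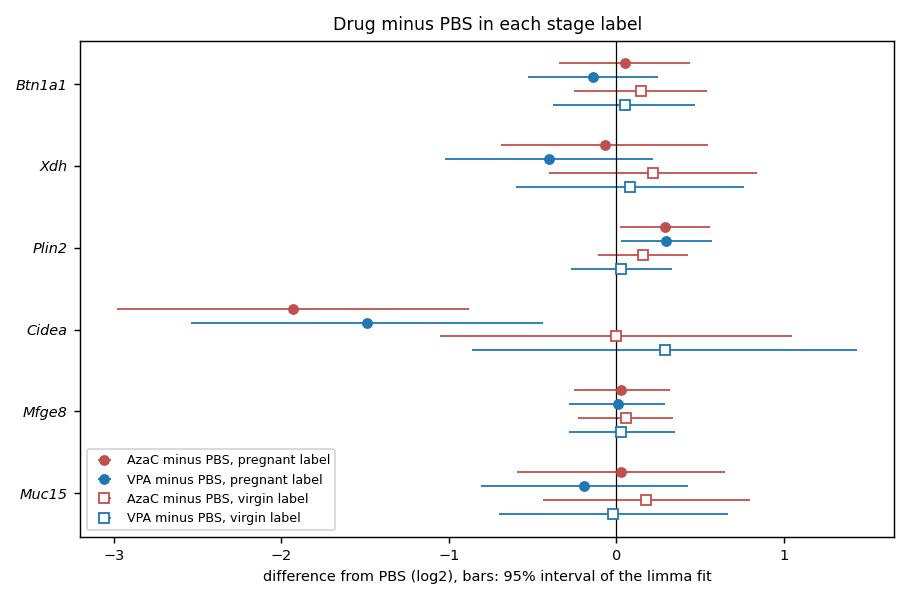
Difference from PBS on the log2 scale (horizontal axis) for each of the 6 genes (vertical axis) with AzaC and VPA in each stage label. Filled circles are the pregnant label, open squares the virgin label, and bars the 95% intervals of the limma fit. Cidea stands at -1.93 and -1.49 in the pregnant label, Plin2 at 0.29 and 0.30, and the intervals of the other 4 genes include 0.

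Btn1a1, the butyrophilin that gives the membrane its inner protein coat, read 13.89 and 13.79 with PBS in the pregnant label, 13.90, 13.76 and 14 with AzaC, and 13.92, 13.85 and 13.34 with VPA. The groups overlapped, and only pregnant VPA replicate 3 lay clearly below the rest. The change was 0.05 ± 0.18 (SE, adjusted p = 0.903) with AzaC and -0.14 ± 0.18 (SE, adjusted p = 0.688) with VPA, with 95% intervals from -0.34 to 0.44 and from -0.53 to 0.25. In the virgin label it read 13.85 and 13.70 with PBS, 13.93, 13.92 and 13.91 with AzaC, and 13.80 and 13.84 with VPA, with changes of 0.15 and 0.05 (adjusted p = 0.874 and 0.977). Its other 2 probe sets had lower signals, away from the end of the scale. The steadier of them read 8.88 and 9.26 with pregnant PBS, 9.02, 8.69 and 9.19 with AzaC, and 9.28, 9.50 and 8.18 with VPA. In the fit over all 20380 probe sets it changed by -0.10 ± 0.33 (SE, adjusted p = 0.889) and -0.08 ± 0.33 (SE, adjusted p = 0.923). Its intervals, from -0.82 to 0.61 and from -0.80 to 0.63, include changes in either direction. On virgin arrays it read 9.08 and 8.93 with PBS and 9.36, 9.41 and 9.48 with AzaC. There it was higher without overlap, like 11.5% of all genes, by 0.41 ± 0.33 (SE, adjusted p = 0.817). The other scattered much more, from 5.47 to 10.91 over the 15 arrays, and its change of -0.06 with AzaC had an SE of 1.48 (adjusted p = 0.99).

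Xdh, the oxidoreductase that pairs with butyrophilin, read 13.79 and 13.62 with PBS in the pregnant label, 13.63, 13.47 and 13.81 with AzaC, and 13.80, 13.45 and 12.67 with VPA. Again pregnant VPA replicate 3 was the lowest array of all 15. The changes were -0.07 ± 0.28 (SE, adjusted p = 0.91) and -0.40 ± 0.28 (SE, adjusted p = 0.421), and the latter was -0.08 without that array. Virgin arrays read 13.74 and 13.22 with PBS, 13.76, 13.69 and 13.66 with AzaC, and 13.64 and 13.48 with VPA. The groups overlapped, with changes of 0.22 and 0.08 (adjusted p = 0.879 and 0.976).

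Muc15, the membrane mucin, showed the same array at the bottom. In the pregnant label it read 13.18 and 13.08 with PBS, 12.93, 13.15 and 13.39 with AzaC, and 13.33, 13.15 and 12.33 with VPA. The groups overlapped, and the changes were 0.03 ± 0.28 (SE, adjusted p = 0.969) and -0.19 ± 0.28 (SE, adjusted p = 0.726). In the virgin label it read 13.44 and 12.80 with PBS, 13.24, 13.28 and 13.39 with AzaC, and 13.16 and 13.05 with VPA, with changes of 0.18 and -0.02 (adjusted p = 0.903 and 0.999). Without pregnant VPA replicate 3 the VPA changes of Btn1a1 and Muc15 turned from negative to 0.05 and 0.11, still far from the threshold (adjusted p = 0.893 and 0.817).

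Mfge8, the bridge between phosphatidylserine and phagocytes, had the narrowest range over the 15 arrays. It read 14.11 and 14.12 with PBS in the pregnant label, 14.19, 14.01 and 14.24 with AzaC, and 14.16, 14.17 and 14.04 with VPA. The changes were 0.03 ± 0.13 (SE, adjusted p = 0.909) and 0.01 ± 0.13 (SE, adjusted p = 0.983), with 95% intervals from -0.25 to 0.32 and from -0.28 to 0.29. In the virgin label it read 14.01 and 14.06 with PBS, 14.06, 14.11 and 14.10 with AzaC, and 14.06 and 14.08 with VPA. Quantile normalization turned the pregnant changes to -0.08 and -0.07 (adjusted p = 0.725 and 0.777). No direction is given for this gene. Among Btn1a1, Xdh, Muc15 and Mfge8, no comparison of 2 groups passed.

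The difference between the 3' and 5' control probe sets of Gapdh, a measure of RNA integrity, varied between arrays. Whether it caused any of the differences was not tested. That difference was 1.23 on virgin PBS replicate 2, 0.85 on pregnant AzaC replicate 1, 0.82 on pregnant VPA replicate 3 and 0.47 on pregnant PBS replicate 2, and at most 0.20 on the other 11 arrays. Pregnant VPA replicate 3 was the lowest and virgin PBS replicate 2 the second lowest array for Btn1a1, Xdh and Muc15. The 4 arrays with the largest difference included 3 of the 4 lowest for Btn1a1 and Muc15 and 2 of the 4 lowest for Xdh. Pregnant AzaC replicate 1 was not low for Btn1a1 (13.90) or Xdh (13.63). For the scattered probe set of Btn1a1 the 4 arrays with the largest difference were the 4 lowest, at 7.15, 7.34, 5.47 and 7.83, and the other 11 read 9.27 or more. For Cidea 2 of the 4 lowest arrays were among them, pregnant AzaC replicate 1 (11.82) and pregnant VPA replicate 3 (12.21), while virgin PBS replicate 2 read 13.48. With the Gapdh difference as a covariate the change of Cidea with AzaC was -1.93 (adjusted p = 0.0335). Without the 3 arrays of highest difference it was -1.95 and did not pass (adjusted p = 0.105). On these, the same difference of the actin controls was 1.44 (virgin PBS replicate 2), 0.46 (pregnant AzaC replicate 1) and 1.20 (pregnant VPA replicate 3). It was 0.68 on pregnant PBS replicate 2, 0.49 on virgin VPA replicate 2 and 0.48 on virgin AzaC replicate 1. By actin, pregnant AzaC replicate 1 was thus not among the highest arrays.

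**Figure D3:**
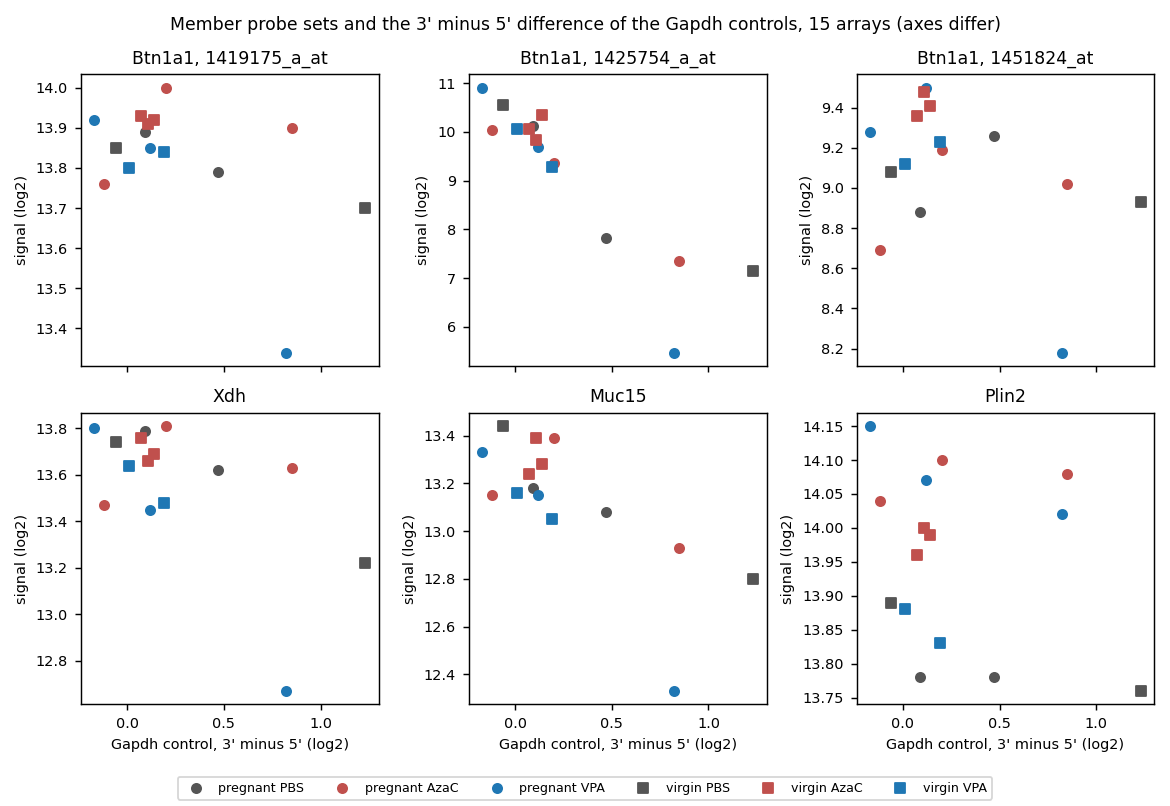
Log2 signal (vertical axes, which differ between panels) of the 3 Btn1a1 probe sets, Xdh, Muc15 and Plin2 against the difference between the 3' and 5' Gapdh control probe sets (horizontal axis, log2). Points are the 15 arrays, coloured by injection, with circles for the pregnant and squares for the virgin label. For the scattered Btn1a1 probe set the 4 arrays at 0.47 or more read between 5.47 and 7.83. For Plin2 the pregnant drug arrays read 14.02 or more, just above virgin AzaC replicate 3 at 14, the highest of the rest.

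RefSeq promoter windows were at hand for 2 of the 6 genes, Plin2 and Mfge8. They are shown because AzaC acts on enzymes that methylate cytosines at CG, marked by capitals below; methylation itself was not measured. Each is the 250 bases before the start of the gene, on the minus strand of GRCm38, written 5′ to 3′. Plin2 lies at chr4:86670060-86670309 and Mfge8 at chr7:79149061-79149310.
Plin2: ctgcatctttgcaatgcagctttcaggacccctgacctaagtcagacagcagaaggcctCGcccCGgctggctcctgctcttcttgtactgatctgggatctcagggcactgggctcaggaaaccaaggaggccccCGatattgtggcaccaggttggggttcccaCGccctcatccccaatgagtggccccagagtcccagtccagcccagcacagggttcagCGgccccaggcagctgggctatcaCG
Mfge8: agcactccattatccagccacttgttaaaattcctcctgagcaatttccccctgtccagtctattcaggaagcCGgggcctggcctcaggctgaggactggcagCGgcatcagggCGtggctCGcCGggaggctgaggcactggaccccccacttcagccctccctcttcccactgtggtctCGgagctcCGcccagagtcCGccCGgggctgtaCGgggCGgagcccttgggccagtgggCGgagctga
The Plin2 window holds 6 CG dinucleotides, which is also the median of the 32851 promoter windows of this length, and 50.4% of windows hold as many or more. The Mfge8 window holds 12, a count reached by 33.5% of windows. The palindromic STAT motif TTCNNNGAA, present in 7.02% of windows, was found in neither, nor was the PPAR motif AGGTCANAGGTCA on either strand (0.0335% of windows). Both strands were searched, and no match says only that these letters are not in the window.

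Other proteins of the globule membrane changed in both directions in the pregnant label. Of 18 measured, 5 fell and 3 rose with AzaC, and 4 fell and 5 rose with VPA (7.57% and 5.98% of all genes passed in either direction). Since the list was chosen with earlier results of these data known, its counts are no independent comparison with those shares. The list's median change was -0.09 and -0.11, beside 0.04 and 0.06 for all genes. Atp2b2, the calcium pump of the apical membrane, read 12 and 11.99 with PBS, 8.54, 9.92 and 6.90 with AzaC, and 8.87, 8.26 and 7 with VPA. It fell by 3.54 ± 0.74 (SE, adjusted p = 0.0221) and fell by 3.95 ± 0.74 (SE, adjusted p = 0.019), with no overlap. Abcg2, the transporter that concentrates riboflavin and drugs in milk, read 12.71 and 12.59 with PBS, 10.99, 11.42 and 10.37 with AzaC, and 11.27, 11.42 and 11.16 with VPA. It fell by 1.72 ± 0.28 (SE, adjusted p = 0.0115) and 1.37 ± 0.28 (SE, adjusted p = 0.0246). Rab18, a GTPase on lipid droplets, fell by 1.59 and 1.55 (adjusted p = 0.0292 and 0.036), but the mean of its probe sets did not pass (adjusted p = 0.173 and 0.197). The phosphate transporter Slc34a2 fell with both drugs as well, and the folate receptor Folr1 with AzaC.

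Those that rose include proteins with other roles besides milk fat. Cd14, the lipopolysaccharide receptor, which is also made by macrophages, rose by 3.71 ± 0.75 (SE, adjusted p = 0.0193) with AzaC and 3.61 ± 0.75 (SE, adjusted p = 0.025) with VPA. Its arrays read 10.50 and 9.89 with PBS and at least 13.65 with either drug. Ceacam1, an adhesion molecule, rose by 1.75 (adjusted p = 0.0223) and 1.47 (adjusted p = 0.0422). The complement inhibitor Cd59a rose by 1.21 (adjusted p = 0.0374) and 1.59 (adjusted p = 0.0199). Anxa2, an annexin, and Vamp8, a vesicle SNARE, rose with VPA by 1.44 and 1.03 (adjusted p = 0.0448 and 0.0455). The mean of the Anxa2 probe sets gave 0.31 (adjusted p = 0.723), and the same alternative ended the calls of Cd59a with AzaC (0.92, adjusted p = 0.0961) and Ceacam1 with VPA (1.31, adjusted p = 0.0863). Muc1, the main transmembrane mucin of the globule, differed by 0.31 (adjusted p = 0.511) and -0.05 (adjusted p = 0.932). Leaving out pregnant PBS replicate 1 or 2 left 0 of these 18 genes past the threshold for either drug. There limma called 16 and 14 genes of all for AzaC and 24 and 20 for VPA. Without pregnant AzaC replicate 1 or 3 the list kept 1 gene each, without pregnant VPA replicate 1 or 2 it kept 2 each, and without VPA replicate 3 none passed.

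**Figure D4:**
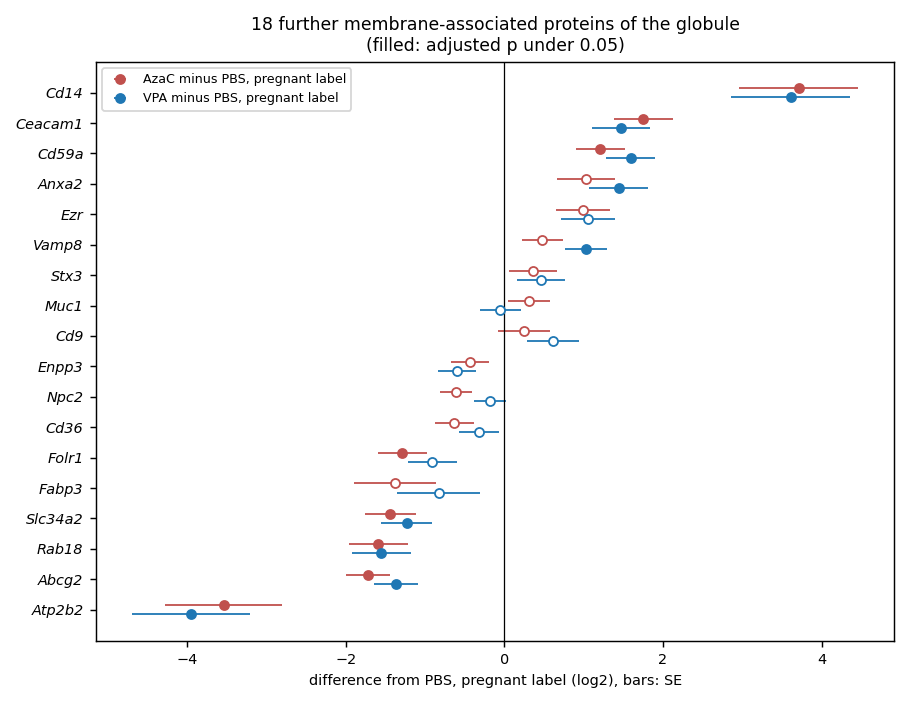
Difference from PBS in the pregnant label on the log2 scale (horizontal axis) for 18 further proteins of the globule membrane (vertical axis), ordered by their change with AzaC. Points are fitted changes, bars SE, and filled points passed an adjusted p of 0.05. Atp2b2 is lowest at -3.54 and -3.95 and Cd14 highest at 3.71 and 3.61; both drugs were compared with the same 2 PBS arrays.

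Among the relatives of Plin2 and Cidea and the other genes of the lipid droplet, 21 were measured. With AzaC, G0s2, an inhibitor of adipose triglyceride lipase, fell by 2.53 ± 0.51 (SE, adjusted p = 0.0184), and Mgll, the monoglyceride lipase, rose by 1.75 ± 0.40 (SE, adjusted p = 0.0277). With VPA, Mgll rose by 2.20 ± 0.40 (SE, adjusted p = 0.0173), and it was the 1 gene of the list to pass, while G0s2 differed by -1.11 (adjusted p = 0.202). The mean of the Mgll probe sets gave 1.26 and 1.30 (adjusted p = 0.0594 and 0.0586). The list's medians were 0.19 and 0.31. Cidec, the relative of Cidea in white fat, differed by 0.73 (adjusted p = 0.517) and 0.58 (adjusted p = 0.632), Cideb by 0.19 and 0.36, and Plin3, a perilipin found in many tissues, by 0.82 and 1.10 (adjusted p = 0.295 and 0.172). Plin4 differed by 0.40 and 0.21, and Plin5, the perilipin of oxidative tissues, by 1.32 and 1.71 (adjusted p = 0.252 and 0.154), so none of these relatives passed.

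In the pathways around the other members, calls are read against the 7.57% (AzaC) and 5.98% (VPA) of all genes that passed. Of 16 genes of purine metabolism and the cofactor of Xdh, 3 passed with AzaC and 2 with VPA (median change -0.07 and -0.11). Ampd3, an AMP deaminase, rose by 2.49 and 2.18 (adjusted p = 0.0221 and 0.037) and the guanine deaminase Gda by 1.31 and 1.64 (adjusted p = 0.0498 and 0.0283). Adenosine deaminase, Ada, fell by 1.88 with AzaC (adjusted p = 0.0417). Of 16 genes that share the clearance of dying cells with Mfge8, 2 passed with each drug. Their median change was 0.61 with AzaC and 0.54 with VPA, beside 0.04 and 0.06 for all genes, and 12 changes were positive with each drug. Tyro3, a receptor of the same family as Mertk, rose by 2.76 and 2.95 (adjusted p = 0.0348 and 0.0333), and Anxa1, an annexin, by 2.01 and 2.28 (adjusted p = 0.0316 and 0.0255). None of 7 mucins passed (median change 0.31 and -0.05). Muc4, which had the smallest p, differed by 3.42 and 3.04 (adjusted p = 0.121 and 0.172). Muc5b differed by 2.44 with AzaC (adjusted p = 0.155) and Muc13 by -0.92 with VPA (adjusted p = 0.266). Of the butyrophilin family 2 genes were measured. Btnl10 differed by -0.35 and -0.16 (adjusted p = 0.54 and 0.812), and Mog, a myelin protein, by -0.29 and 0 (adjusted p = 0.912 and 1). Without pregnant PBS replicate 1, or without replicate 2, 0 genes of the lipid droplet, purine, clearance, transcription factor and milk protein lists passed for either drug. Without pregnant AzaC replicate 1 or 3 the first 4 of these lists also had 0 calls for AzaC. Ada passed in 6 of 14 alternatives, and Gda in 4 of 14 with AzaC and 8 of 14 with VPA. Ampd3 passed in 6 of 13 with each drug, and Tyro3 and Anxa1 in 7 of 14 with each.

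Of 18 transcription factors of milk lipid and secretory genes, 1 passed with each drug, a share near that of all genes (7.57% and 5.98%). Thrsp, a lipogenic regulator, fell by 1.26 ± 0.29 (SE, adjusted p = 0.0289) with AzaC and differed by -0.94 (adjusted p = 0.082) with VPA. The C/EBP factor Cebpd rose by 1.83 ± 0.45 (SE, adjusted p = 0.0392) with VPA and differed by 1.27 (adjusted p = 0.103) with AzaC. The mean over its probe sets gave 0.85 for VPA (adjusted p = 0.381). The medians of the list were 0.01 and 0.02. Of 12 milk protein and secretory genes, 2 passed with AzaC and 1 with VPA, beside 7.57% and 5.98% of all genes. Their median change was 0.12 with each drug. Lpo, the lactoperoxidase of milk, fell by 1.80 and 1.46 (adjusted p = 0.0133 and 0.0278) and Olah, the thioesterase that ends medium-chain fatty acid synthesis, fell by 1.85 with AzaC (adjusted p = 0.0113).

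The genes whose levels followed Cidea most closely over the 15 arrays were Fkbp11, a prolyl isomerase of the endoplasmic reticulum (Pearson r = 0.970), Abcg2 (0.968) and Ankrd54 (0.967). These values describe likeness only, since the arrays share groups, and 6 of them are drug arrays of 1 label. Fkbp11 fell with AzaC in the pregnant label, where its mean was 12.91 ± 0.13 (SD, n = 2) with PBS and 10.86 ± 1.02 (SD, n = 3) with the drug. The fitted difference was -2.04 ± 0.48 (SE, adjusted p = 0.0294). It read 11.37 ± 0.27 (SD, n = 3) with VPA (adjusted p = 0.0804). For Plin2 the closest were the histone methyltransferase Ehmt2 (0.965), Dcaf8, a substrate receptor of a ubiquitin ligase (0.958), and Echdc2, a mitochondrial hydratase (0.956). Ehmt2 rose by 1.31 and 1.21 with the drugs (adjusted p = 0.0263 and 0.0381), Dcaf8 by 0.67 and 0.81 (adjusted p = 0.0417 and 0.0279) and Echdc2 by 1.81 and 1.61 (adjusted p = 0.0115 and 0.0172). Xdh and Muc15 had Clcn5, a chloride-proton exchanger, in common among their closest genes (0.910 and 0.911), and Btn1a1 and Xdh had the phosphatase gene Ptpra (0.882 and 0.893). Mfge8 was closest to Dhx16 (0.886), an RNA helicase of splicing. Between members, r was 0.95 for Btn1a1 and Xdh, 0.91 for Xdh and Muc15, and -0.77 for Plin2 and Cidea. The Spearman rank correlation of these pairs was 0.84, 0.82 and -0.82, and that of Btn1a1 and Ptpra was 0.678. Btn1a1, Xdh and Muc15 share pregnant VPA replicate 3 as their lowest array.

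**Figure D5:**
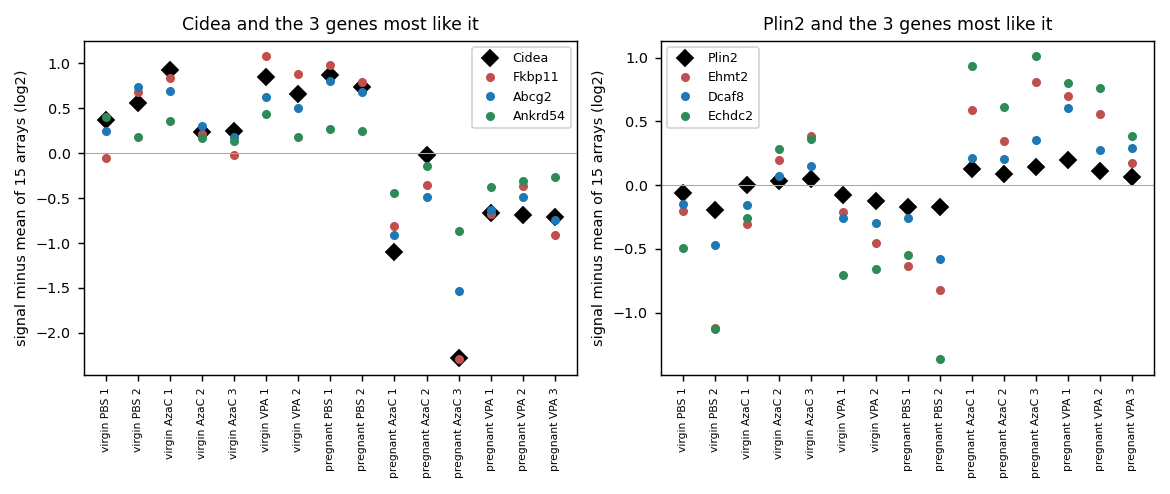
Log2 signal minus its mean over the 15 arrays (vertical axis) on each array (horizontal axis) for Cidea and Plin2 (diamonds) and the 3 genes with the highest Pearson r to each (circles). Cidea and its closest genes are low on the 6 pregnant drug arrays, with pregnant AzaC replicate 2 the highest and replicate 3 the lowest of these for Cidea; Plin2 moves over a much smaller range than Ehmt2, Dcaf8 and Echdc2.

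Between the stage labels no member passed. With PBS, the pregnant minus the virgin mean was 0.06 for Btn1a1, 0.22 for Xdh, -0.05 for Plin2, 0.08 for Mfge8 and 0.01 for Muc15 (adjusted p = 1 for each; 0.00807% of all genes passed and 28.3% did not overlap). Under AzaC the label difference of the 5 members other than Cidea lay between -0.15 and 0.09, and under VPA between -0.25 and 0.23. There 1.23% and 6.66% of all genes passed, and 22.8% and 46% did not overlap. AzaC against VPA in the virgin label gave no call among the members either (adjusted p from 0.862 to 0.984; 0% of all genes, 813 at an unadjusted p under 0.05).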

How the data were processed

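The deposited table holds the authors' log2 signals for 15 arrays and 22690 probe sets, with array medians between 7.22 and 7.47. Background correction, probe summary and normalization are not given in the sources used here, and values were used as deposited. Probe sets were named with the platform annotation of GEO: 20380 carried 1 symbol after 64 control probe sets were set aside, 691 several. Each of 12393 genes was represented by its probe set with the highest mean. The linear model held 1 mean for each of 6 groups; limma 3.58.1 (R 4.3.3; lmFit, then eBayes; 9 residual and 2.31 prior degrees of freedom) gave two-sided tests of 11 comparisons. Benjamini-Hochberg adjustment ran across every gene, and calls needed an adjusted p under 0.05. The fit was tested on simulated data. Intervals are 95%.

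Members and lists were chosen with earlier results of these data known. Named were all members, per list up to 4 passing genes with the largest change (or the 2 of smallest p), and per member the 3 genes of highest Pearson r among genes brighter than the median. Relatives of members (Plin3, Plin4, Plin5, Cideb, Cidec, Muc1), marker genes and Ucp1 were added afterwards. Some genes of the lists, such as Plin1, were not analysed here. Alternatives were quantile normalization, leaving out dim genes, the mean of probe sets, every probe set as a row, trend and robust eBayes, only the groups compared, a replicate block, a floor at 5, the Gapdh covariate and leaving out each array. Leaving out the 3 arrays of highest Gapdh difference was chosen after seeing the data. Replicate numbers were not used to pair arrays: deviations of same-numbered arrays correlated at -0.174 to 0.333. Few arrays limit the precision. Figures were drawn with matplotlib 3.10.9.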

Additional observations from a re-analysis of the deposited data

How the results depend on the processing

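Over the alternatives, 10 changes of members passed that had not (Cidea and Plin2), 7 no longer passed (all Cidea with AzaC in the pregnant label), and no called change turned its sign. The count of members past the threshold moved as follows, and the cause was not tested. For AzaC against PBS in the pregnant label (1 gene, Cidea) it was 0 when only the 5 arrays were fitted, 0 without the 3 arrays of highest Gapdh difference, 2 with values under 5 set to 5 (Plin2 added) and 0 to 1 on leaving out 1 array. With the replicate block it was 0, where Cidea changed by -1.70 (adjusted p = 0.0659) and 466 genes of all passed in place of 938; the block took VPA against PBS from 741 to 241 genes and changed no other member call. Of the 18 other membrane proteins it left 4 (AzaC) and 2 (VPA), and leaving out the 3 arrays of highest Gapdh difference left 2 and 1. For VPA against PBS in the pregnant label (0) the count was 1 without dim genes, 1 with only these arrays and 1 at the floor of 5. The pregnant against virgin contrast (0) gave 1 under AzaC without dim genes and 0 to 1 on leaving out 1 array, and 1 under VPA without dim genes, with only these arrays and at the floor of 5. The VPA effect, pregnant minus virgin (0), gave 1 with only the arrays compared. For all genes, the AzaC count in the pregnant label ranged from 14 to 1335 and the VPA count from 20 to 231 on leaving out 1 array. The covariate gave 1623 and 1233, only the arrays compared 0 and 364, and quantile normalization turned VPA calls from 451 higher and 290 lower to 364 and 398. Limits are the end of the scale and 2 PBS arrays per label.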
